A study of Danio rerio with 14 samples.

Results

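The comparison described here is that of cycloheximide-treated with untreated zebrafish bmp7 mutant embryos, in 5 of the 14 RNA-seq libraries of the study. The members were chosen by the headings of the deposited count table. They are the 3 libraries of mutants that received the translation inhibitor cycloheximide (CHX) and no BMP protein, and the 2 libraries of untreated mutants at 6 hours post fertilization (hpf), and the comparison was made over all genes with enough counts. The study asked which genes BMP signaling activates directly in the zebrafish gastrula. For that it sequenced untreated mutants and wild-type embryos from 2 gastrula stages (6 and 8 hpf), and CHX-treated mutants with and without injected BMP2/7 protein.

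All embryos of both groups were bmp7 mutants (bmp7a sb1aub). The CHX libraries were each made from 50 dechorionated whole embryos that were placed in 10 µg/ml CHX for 30 minutes at 4 hpf and collected 90 minutes after the time of injection. The sources used here do not say whether the embryos without protein received a mock injection. The untreated libraries were each made from 40 dechorionated whole embryos at early gastrula (shield, 6 hpf). CHX, the label stage (4 against 6 hpf), the number of embryos and the handling all differed together between the groups. Their parts therefore cannot be told apart. The label stage of 4 hpf matches the age at which CHX was added. By the times given, the CHX embryos were collected near 6 hpf, the age of the untreated ones. Untreated mutants of the age at which CHX was added were not analysed here. Nothing in the labels says that the 2 groups were run side by side.

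CHX stalls ribosomes in elongation. An early zebrafish embryo begins with messenger RNA laid down in the egg, which is cleared as transcription of its own genome starts, and each wave of new transcripts codes for factors that switch on the next. With translation blocked, a transcript whose activator is already present can still be made, while a transcript that needs a newly made activator, or whose removal needs newly made protein, can differ, and short-lived transcripts such as those of growth factor-induced genes are known to accumulate under the drug, which is called superinduction.

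The 5 libraries held between 10482055 and 16911039 counts each. Levels are given as CPM, counts divided by library size, with TMM scaling, which sets the bulk of genes equal between libraries. Replicates correlated at r = 0.964 to 0.979 among the CHX libraries and at 0.974 between the untreated libraries, on log2 CPM over all transcripts tested, against 0.787 to 0.850 between libraries of the 2 groups. The 10 most abundant transcripts took 6.81% to 8.05% of counts in CHX libraries and 14.2% to 14.4% in untreated libraries. Of 10 markers of tissues that form after gastrulation, 2 had enough counts to be tested, and their summed level was 1.01 to 3.40 CPM with CHX and 2.30 to 5.35 CPM untreated. The number of samples limits precision more than counting error does, and the p-values measure only the spread between these pools of embryos.

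Most genes differed between the groups. Of 9793 genes tested, 5645 (57.6%) passed an adjusted p under 0.05, here always from the quasi-likelihood test of edgeR with Benjamini-Hochberg adjustment. There were 2934 higher with CHX (30%) and 2711 lower (27.7%), and 2374 (24.2%) and 2002 (20.4%) of these were changed at least 2-fold. Every CHX library lay above both untreated libraries in 39.5% of genes and below both in 35.5%. Changes of at least 8-fold were as frequent upward as downward, with 429 genes each. The median log2 fold change, CHX over untreated, was 0.09 over all genes tested, with quartiles at -0.85 and 1.11. The split depended on the scaling. With library size alone in place of TMM, 4475 genes were higher and 1614 lower, so that 73.5% rather than 52% of the calls were higher and the median log2 fold change was 0.64 rather than 0.09. The log2 fold changes below are on the TMM scale. A share of calls in a gene list is read below against 30% higher and 27.7% lower over all genes. Some list members had enough counts to be tested only in the group in which they were high. Such genes could hardly be called the other way.

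**Figure D1:**
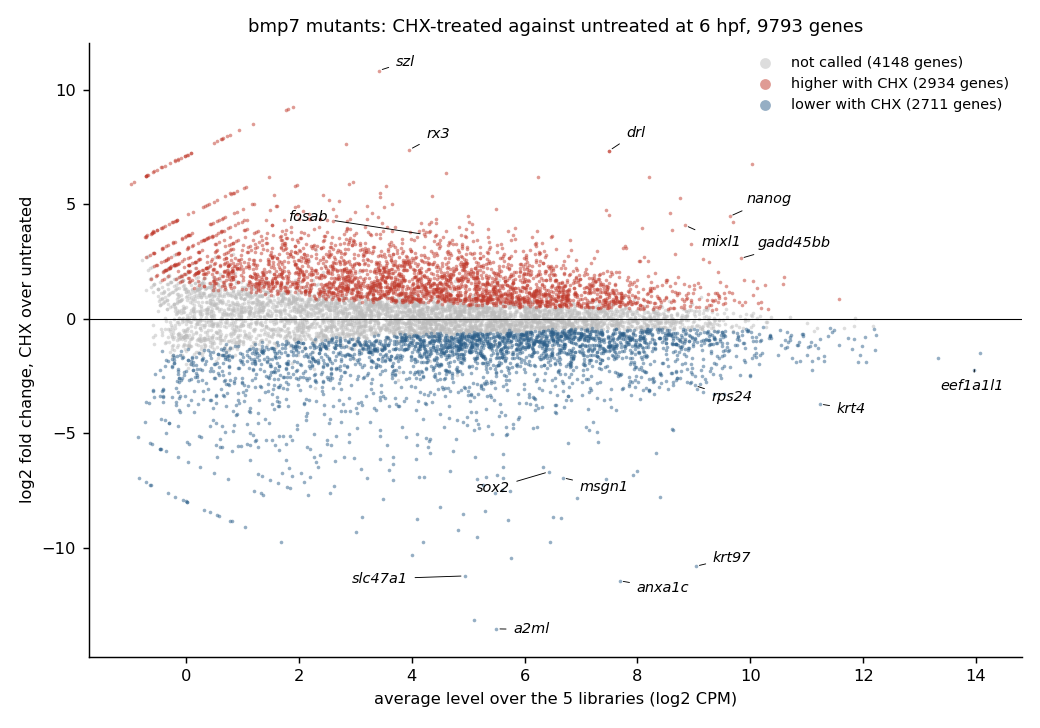
Each point is a gene, with its average level over the 5 libraries in log2 CPM on the horizontal axis and its fitted log2 fold change, CHX over untreated, on the vertical axis. The 2934 genes higher with CHX (red) and the 2711 lower (blue) lie at all levels, and the most abundant transcripts, such as eef1a1l1 and krt4, lie among the lower ones. The slanted rows of points at low levels are genes with few or no counts in 1 group, whose fitted fold change has no fixed size.

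The bmp7a transcript itself was measured at 18.8, 23.2 and 15.14 CPM with CHX, against 3.40 and 1.95 CPM untreated. It was thus higher in every CHX library, by 2.82 ± 0.37 (SE, adjusted p = 0.000474) on the log2 scale. In the scaling over all 14 libraries it averaged 18.9 ± 4.22 CPM with CHX, 2.61 ± 1.03 CPM in untreated mutants and 62.1 ± 2.56 CPM in wild type at 6 hpf (SD over libraries). The sources used here do not say how the sb1aub allele changes the transcript, so these levels do not check the genotype.

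Ribosomal protein genes were lower nearly throughout. Of 71 ribosomal protein genes tested, 70 were lower and none was higher, with a median log2 fold change of -2.62 and a range from -3.32 to -1.59. The exception, rps8b, gave -1.94 ± 0.87 (SE, adjusted p = 0.0869). Ribosomal protein transcripts made up 0.884% to 1.16% of all counts in the CHX libraries and 3.37% to 5.08% in the untreated libraries. The count of lower calls was also 70 with library size alone, and no fewer when any library was left out.

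Among ribosomal protein genes, rps24, a component of the small subunit, was at 132, 164 and 133 CPM with CHX, against 922 and 1230.1 CPM untreated (-2.92 ± 0.19 (SE, adjusted p = 4.22e-05)). The large subunit gene rpl22 was at 49.99, 64.9 and 43.9 CPM with CHX, against 382 and 519 CPM untreated, a log2 fold change of -3.09 ± 0.22 (SE). In both genes the lower untreated library was far above the highest CHX library, and the CHX libraries lay close together.

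Elongation and initiation factors went the same way less uniformly, with 40 of 62 lower and 6 higher (median -0.93), against 26 lower and 13 higher with library size alone. The most abundant was eef1a1l1, which codes for the elongation factor that brings aminoacyl-tRNA to the ribosome, at 6523, 7563 and 5411 CPM with CHX, against 26310.0 and 34595 CPM untreated (-2.23 ± 0.18 (SE, adjusted p = 8.03e-05)). The initiation factor gene eif5 was at 199, 198 and 236 CPM with CHX, against 858 and 1008 CPM untreated, and eif5a, which codes for a hypusine-containing elongation factor, was at 459, 456 and 473 CPM with CHX, against 1465 and 1436 CPM untreated. Both groups were separate in these genes. The eef1g transcript, which codes for the gamma subunit of the exchange factor of eEF1A, was at 199, 216 and 167 CPM with CHX, against 798 and 982 CPM untreated (-2.20 ± 0.18 (SE)).

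Other housekeeping sets were lower on balance. The respiratory chain and ATP synthase list had 57 of 87 genes lower and 7 higher (median -1.18), with atp5if1a, the inhibitor of the ATP synthase, at 9.23, 8.10 and 6.56 CPM with CHX, against 59.8 and 96.8 CPM untreated. The proteasome list had 27 of 42 lower and 3 higher (median -0.79), and its most strongly supported gene was psma4, a subunit of the core particle (-2.34 ± 0.20 (SE, adjusted p = 0.000102)). The SR splicing factors, which bind exonic enhancers, had 13 of 15 lower and 1 higher (median -1.06), with srsf3b at 474, 473 and 493 CPM with CHX, against 1099 and 1409 CPM untreated. The sizes were more moderate than in ribosomal protein genes, and under library size alone the lower calls were 42, 14 and 9 and the higher calls 12, 4 and 2 in these 3 lists. The higher calls of the respiratory list were 4 without either untreated library or CHX replicate 1, those of the proteasome list 1 without untreated replicate 2, and the 1 of the SR list was lost whichever library was left out. Of 16 aminoacyl-tRNA synthetase genes, 6 were lower and none higher, with a median of -0.45 that turned to 0.09 under library size alone, where 6 were lower and 3 higher.

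**Figure D2:**
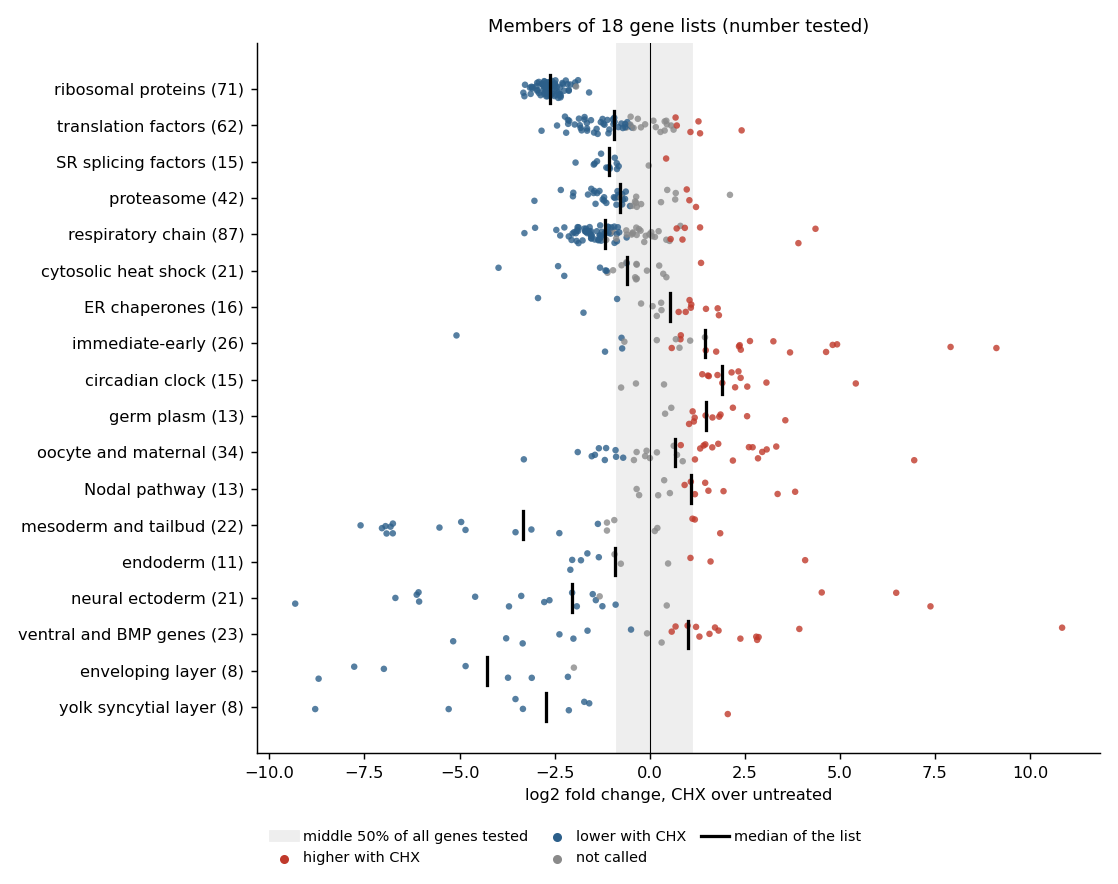
Points are the tested members of 18 gene lists, placed by their log2 fold change, CHX over untreated, and coloured by call, and black bars are list medians. The grey band spans the quartiles of all 9793 genes, from -0.85 to 1.11. The ribosomal protein genes form a tight cluster around -2.62, while the neural and ventral lists spread over many log2 units to both sides. The mesoderm list spreads mainly downward, from -7.6 to 1.85.

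Transcripts of the enveloping layer, the outermost sheet of the blastula that later forms the periderm, were lower or nearly missing with CHX. Of 8 tested marker genes 7 were lower and none higher, with a median log2 fold change of -4.28. The exception was krt8 (-1.99 ± 0.80 (SE, adjusted p = 0.061)). The summed level of the list was 439 to 1174 CPM in CHX libraries and 8830 to 9465 CPM in untreated libraries. In whole embryos fewer cells of a type and less RNA per cell cannot be told apart.

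The keratin gene krt4 was at 302, 729 and 193 CPM with CHX, against 5054 and 5748 CPM untreated (-3.73 ± 0.48 (SE, adjusted p = 0.00044)). CHX replicate 2 had the highest level among the CHX libraries, and it was still far below the lowest untreated library. The keratin gene krt17 was at 0.938, 8.20 and 0.324 CPM with CHX, against 391.9 and 465 CPM untreated (-6.99 ± 0.92 (SE)). The type I keratin gene cyt1l was at 0.0721, 1.43 and 0 CPM with CHX, against 224 and 272 CPM untreated (-8.70 ± 0.77 (SE)), and the claudin gene cldne, which codes for a tight junction protein, at 243, 317 and 237 CPM with CHX, against 1292 and 1068 CPM untreated. For cyt1l the 3 CHX libraries held 28 counts in all, of which 27 were in replicate 2. The keratin gene krt97, which was not on the marker list, had 0.216, 1.48 and 0.243 CPM with CHX, against 1151 and 1471 CPM untreated, among the largest differences in the data.

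The yolk syncytial layer, the extraembryonic layer of nuclei at the yolk surface, showed the same direction in 7 of 8 tested markers. With library size alone 5 were called lower, and also 5 without CHX replicate 1. Fewer than 7 were likewise called lower without either untreated library. The apolipoprotein gene apoa1b was at 0.144, 0.423 and 0.243 CPM with CHX, against 61.8 and 199 CPM untreated (-8.79 ± 0.63 (SE, adjusted p = 6.69e-05)). Its relative apoa2 was at 0.0721, 0.370 and 0 CPM with CHX, against 5.89 and 8.08 CPM untreated, and the abundant apoeb at 1861, 2338 and 2374 CPM with CHX, against 5416 and 7782 CPM untreated (-1.59 ± 0.19 (SE)). The eighth marker went the other way: mxtx1, a homeobox gene of the layer's early regulatory cascade, was at 156, 201 and 217 CPM with CHX, against 61.7 and 30.6 CPM untreated (2.05 ± 0.32 (SE, adjusted p = 0.000987)). The untreated libraries also differed from each other in this group, replicate 2 being above replicate 1 in apoa1b, apoa2 and apoeb.

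Genes with the largest loss were led by a2ml, an alpha-2-macroglobulin-like gene, and apoa1a, an apolipoprotein gene. The a2ml transcript had 0 counts in all CHX libraries, against 48.4 and 178 CPM untreated, which puts it at least 1675-fold lower against a floor of 3 counts over the group. The apoa1a transcript also had 0 counts with CHX, against 42.1 and 129.8 CPM untreated, at least 1274-fold lower. The annexin gene anxa1c had 0, 0.370 and 0.0810 CPM with CHX, against 420.4 and 608 CPM untreated, and agr1, which codes for a secreted disulfide isomerase-like protein, had 0, 0.212 and 0 CPM with CHX, against 130.3 and 141 CPM untreated. The transporter gene slc47a1 had 1 count in the CHX libraries, a level 3440-fold lower (95% counting interval 617 to 136000). The remaining genes of the 10 with the largest loss were gna14, a G protein alpha subunit, krt96, the urate oxidase gene uox and the zinc finger gene znf750, which in mammals drives epidermal differentiation, besides krt97. In total 51 genes were under 1 CPM in every CHX library and at 10 CPM or more in both untreated libraries, and 10 genes showed the reverse.

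**Figure D3:**
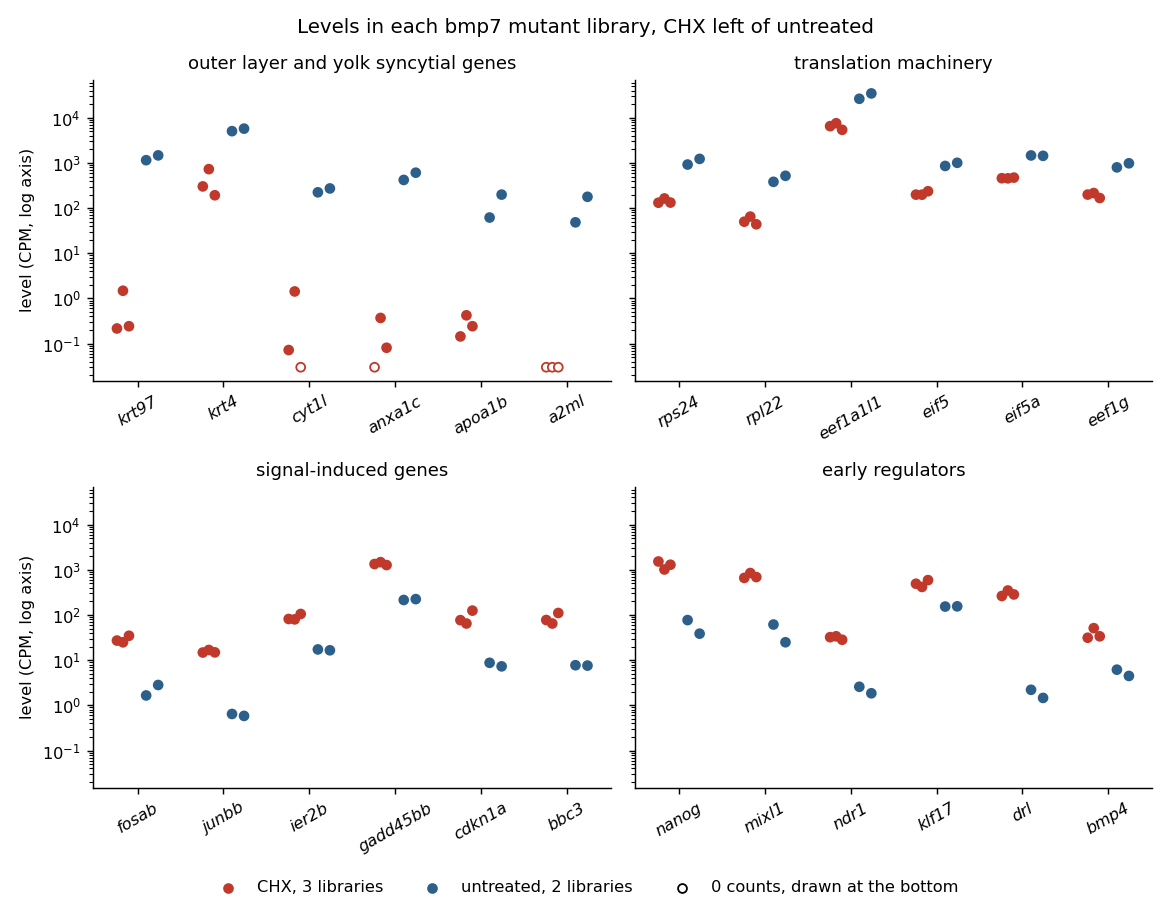
Each point is a library, with CHX (red, 3 libraries) left of untreated (blue, 2 libraries), and the level in CPM is on a log axis with 0 counts drawn as open circles at the bottom. The 4 panels show 6 genes each, and in all 24 genes every CHX library lies on the same side of both untreated libraries. For krt4 the CHX libraries lie between 193 and 729 CPM and the untreated libraries at 5054 and 5748 CPM.

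Most genes of the mesoderm and tailbud list were lower with CHX. Of 22 genes tested 14 were lower and 3 higher, and the median was -3.32. The T-box gene ta (brachyury), which is needed for notochord and posterior mesoderm, was at 882, 980.0 and 931 CPM with CHX, against 1059 and 639.5 CPM untreated. Its groups overlapped and the difference was 0.13 ± 0.21 (SE, adjusted p = 0.611). The T-box gene tbx16 (spadetail), needed for trunk paraxial mesoderm, was at 495, 724 and 382 CPM with CHX, against 258 and 232 CPM untreated and was higher (1.12 ± 0.26 (SE, adjusted p = 0.00723)).

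Several genes known to act after these T-box factors were lower, and others were not. The paraxial mesoderm gene tbx6 was at 0.144, 0 and 0.648 CPM with CHX, against 19.8 and 43.4 CPM untreated (-7.04 ± 0.78 (SE, adjusted p = 0.00023)). The presomitic bHLH gene msgn1 was at 1.73, 1.38 and 3.16 CPM with CHX, against 313 and 193 CPM untreated (-6.95 ± 0.38 (SE, adjusted p = 2.50e-05)). The segmentation genes mespab, at 0.289, 0.952 and 0.324 CPM with CHX, against 131 and 89.3 CPM untreated, and ripply1, at 0.721, 1.01 and 0.648 CPM with CHX, against 80.4 and 117.2 CPM untreated, had log2 fold changes of -7.60 ± 0.45 (SE) and -6.92 ± 0.32 (SE). CHX and untreated levels of these 4 genes were apart by more than an order of magnitude. The Delta ligand gene dld, which couples the segmentation clock between cells, was at 8.08, 15.08 and 11.7 CPM with CHX, against 308 and 363 CPM untreated (-4.84 ± 0.27 (SE)). Its relative dlc was higher (1.19 ± 0.38 (SE, adjusted p = 0.0257)), and neither the clock gene her7 (-0.93 ± 0.86 (SE, adjusted p = 0.371)) nor the paraxial protocadherin gene pcdh8 (-1.12 ± 0.90 (SE, adjusted p = 0.305)) passed the test. These 3 genes were chosen for mention after their values were seen.

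**Figure D4:**
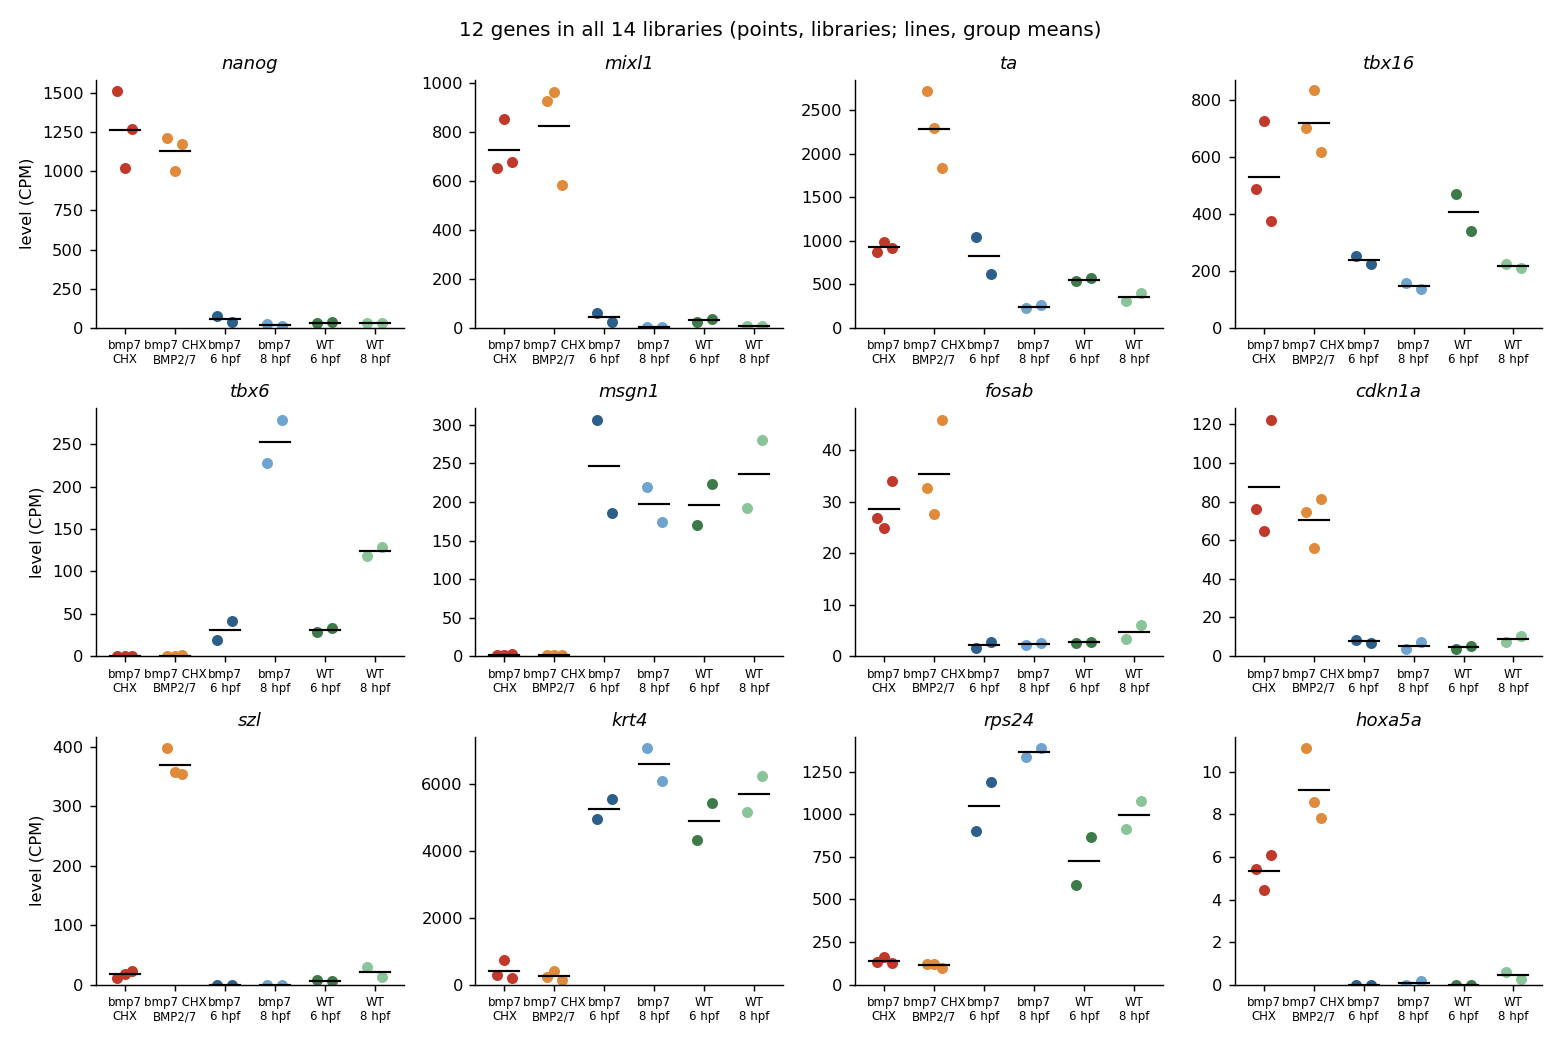
Points are the 14 libraries and lines are group means, in CPM scaled over all libraries, for 12 genes on separate linear axes, with the CHX groups on the left. The regulators ta and tbx16 are present with CHX while tbx6 and msgn1 lie near 0, and nanog, mixl1, fosab and cdkn1a are high in both CHX groups alone. For szl the CHX libraries without BMP protein average 17.1 CPM and those with it 370 CPM, while untreated mutants at 6 hpf have 0.

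Nodal ligands induce mesoderm and endoderm from the blastula margin, and most pathway genes were higher with CHX. Of 13 genes 8 were higher and none lower, with a median of 1.08 (1 was lower without CHX replicate 3). The Nodal ligand gene ndr1 (squint) was at 32.3, 33.8 and 28.3 CPM with CHX, against 2.58 and 1.85 CPM untreated (3.82 ± 0.31 (SE, adjusted p = 8.83e-05)). The receptor gene acvr2ba was at 160.2, 147 and 113.8 CPM with CHX, against 58.0 and 44.3 CPM untreated, and the gene of the ligand partner gdf3 (vg1), which is also maternal, at 247, 188 and 203 CPM with CHX, against 99.7 and 87.0 CPM untreated. The signal transducer smad2 was at 142, 116.7 and 134 CPM with CHX, against 62.0 and 61.9 CPM untreated (1.08 ± 0.18 (SE)). All 4 genes had every CHX library above both untreated libraries.

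The endoderm list was divided, with 3 of 11 genes higher and 5 lower (median -0.93). The homeobox gene mixl1, an immediate target of Nodal, was at 662, 850.1 and 692 CPM with CHX, against 61.6 and 24.9 CPM untreated (4.09 ± 0.40 (SE, adjusted p = 0.000135)). The endoderm determinant sox32 (casanova) was at 38.4, 73.9 and 26.2 CPM with CHX, against 205 and 188 CPM untreated (-2.09 ± 0.37 (SE, adjusted p = 0.00203)). Its target sox17 was at 4.47, 9.58 and 3.97 CPM with CHX, against 19.9 and 17.9 CPM untreated (-1.64 ± 0.40 (SE, adjusted p = 0.00802)). The forkhead gene foxa3 was higher (1.60 ± 0.18 (SE)), while the homeobox gene hhex and the chemokine receptor gene cxcr4a, which guides endodermal cells, were lower (-2.04 and -1.34). Of the early GATA factor genes, chosen for mention after their values were seen, gata6 was lower (-1.81 ± 0.32 (SE, adjusted p = 0.00193)) and gata5 did not pass the test (0.48 ± 0.37 (SE, adjusted p = 0.286)). In the scaling over all libraries mixl1 averaged 728 ± 108 CPM with CHX, 42.2 ± 25.7 CPM in untreated mutants at 6 hpf and 3.25 ± 0.0246 CPM at 8 hpf.

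Genes on the list of maternal genome activators and other early regulators did not move together. The homeobox gene nanog, a maternal factor that opens the zygotic genome and is also transcribed early, was at 1532, 1018 and 1297 CPM with CHX, against 77.2 and 38.6 CPM untreated (4.47 ± 0.36 (SE, adjusted p = 8.35e-05)). The Krüppel-like gene klf17, a marker of the prechordal polster, was at 492, 418 and 592 CPM with CHX, against 154 and 156 CPM untreated (1.69 ± 0.19 (SE)). Of the SoxB1 genes, sox2 was lower at 0.649, 4.07 and 1.13 CPM with CHX, against 224 and 202 CPM untreated (-6.69 ± 0.59 (SE, adjusted p = 0.000106)) and sox3 at 99.3, 165 and 144 CPM with CHX, against 458 and 311 CPM untreated (-1.50 ± 0.25 (SE)), while the maternal sox19b, chosen for mention after its value was seen, did not pass the test (-0.23 ± 0.25 (SE, adjusted p = 0.436)). Of the 10 genes of this list 3 were higher and 3 lower (5 and 2 with library size alone), and pou5f3, the maternal partner of nanog, did not pass the test (-0.18 ± 0.20 (SE, adjusted p = 0.465)).

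Of 34 oocyte and maternal genes, whose transcripts are held over from the egg, 15 were higher (44.1%) and 10 lower (29.4%), with a median of 0.67. The lower share was near the 27.7% over all genes. Library size alone gave 20 higher and 4 lower, and there were 5 lower calls without untreated replicate 2. The Balbiani body gene buc was at 151, 84.5 and 133 CPM with CHX, against 15 and 9.44 CPM untreated (3.33 ± 0.34 (SE, adjusted p = 0.00017)). The embryonic cyclin gene ccna1 was at 689, 500.2 and 677 CPM with CHX, against 101 and 71.8 CPM untreated (2.85 ± 0.24 (SE, adjusted p = 9.43e-05)), and the linker histone gene h1m, used in early cleavage, at 938, 586 and 1048 CPM with CHX, against 116.1 and 165 CPM untreated. Zona pellucida genes were among those lower, with zp3a.2 at 63.4, 62.8 and 57.6 CPM with CHX, against 161 and 172 CPM untreated, and so was ybx1, an RNA-binding repressor of maternal transcripts, at 849.9, 887 and 842 CPM with CHX, against 2792 and 3592 CPM untreated (-1.89 ± 0.15 (SE)).

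Germ plasm and germ cell transcripts were the most uniform of the maternal sets, with 11 of 13 higher and none lower (median 1.47). The primordial germ cell gene ca15b was at 135, 73.7 and 122.5 CPM with CHX, against 18.8 and 18.6 CPM untreated (2.56 ± 0.30 (SE, adjusted p = 0.00028)). The germ plasm gene rgs14a was at 12.7, 5.93 and 8.66 CPM with CHX, against 0.644 and 0.876 CPM untreated (3.56 ± 0.50 (SE)), and piwil2, which codes for a Piwi protein of the piRNA pathway, at 34.8, 34.3 and 38.3 CPM with CHX, against 9.66 and 10.5 CPM untreated. Among known targets of the miR-430 family, the microRNA that clears maternal RNA after genome activation, 6 of 9 were higher and none lower (median 1.54), ndr1, cd82b (1.87 ± 0.32 (SE)) and dazl (1.65 ± 0.30 (SE)) among them. Of those higher, ndr1, lft1 and lft2 are also on the Nodal list, and dazl and tdrd7a on the germ plasm list. The miR-430 targets are therefore not a separate set of genes. In untreated wild type the germ plasm genes had a median log2 fold change of -0.98 at 8 hpf over 6 hpf.

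In the mRNA decay list 10 of 31 genes were higher and 10 lower (32.3% each), near the shares over all genes. Library size alone gave 16 higher and 2 lower, and there were 6 lower calls without untreated replicate 1. The deadenylase subunit genes cnot6b, at 23.6, 22.1 and 20.9 CPM with CHX, against 2.76 and 3.89 CPM untreated, and cnot3b, at 107, 111 and 77.5 CPM with CHX, against 27.3 and 22.9 CPM untreated, were higher (2.74 ± 0.30 (SE) and 1.97 ± 0.24 (SE)). The antiproliferative Tob genes tob1a and tob1b, whose proteins recruit the deadenylase, were also higher (1.45 and 1.40). Of the factors of nonsense-mediated decay, a pathway that needs translation, rbm8a, of the exon junction complex, was lower (-1.08 ± 0.14 (SE)).

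Immediate-early genes, which growth factors and stress switch on without new protein, were higher with CHX in 16 of 26 cases and lower in 4 (median 1.46), with 2 lower calls without either untreated library or CHX replicate 1. The AP-1 gene fosab was at 27.2, 24.9 and 34.7 CPM with CHX, against 1.66 and 2.82 CPM untreated (3.69 ± 0.36 (SE, adjusted p = 0.000139)). Its partner junbb was at 14.8, 16.8 and 14.9 CPM with CHX, against 0.644 and 0.584 CPM untreated (4.64 ± 0.36 (SE, adjusted p = 7.66e-05)). The gene ier2b was at 81.7, 80.1 and 105 CPM with CHX, against 17.3 and 16.5 CPM untreated (2.39 ± 0.23 (SE)) and the stress gene gadd45bb at 1344, 1480.0 and 1276 CPM with CHX, against 215 and 225 CPM untreated (2.64 ± 0.16 (SE)). In none of these did the groups overlap, and the 3 CHX libraries lay close to each other. Members of the list that were lower included cebpd, a C/EBP transcription factor gene (-5.08 ± 0.55 (SE)), chosen for mention after its value was seen. The orphan receptor gene nr4a1, also chosen so, had 8.87, 6.67 and 0 CPM in CHX replicates 1 to 3, against 0 in both untreated libraries. It had enough counts to be tested only in the CHX group. The same held for junbb and for fosl1a, another higher member, both under 1 CPM in both untreated libraries. The share of higher calls in this list is therefore not read against that over all genes.

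Named genes of growth arrest and apoptosis were higher with CHX. The cell cycle inhibitor gene cdkn1a (p21) was at 76.9, 64.8 and 125.1 CPM with CHX, against 8.74 and 7.30 CPM untreated (3.47 ± 0.35 (SE, adjusted p = 0.000161)). The ubiquitin ligase gene mdm2 was at 10.8, 10.4 and 17.4 CPM with CHX, against 2.39 and 2.43 CPM untreated (2.41 ± 0.37 (SE, adjusted p = 0.000986)). The apoptosis gene bbc3 (puma) was at 77.5, 64.8 and 111 CPM with CHX, against 7.73 and 7.59 CPM untreated and the growth arrest gene gadd45aa at 93.2, 105 and 133 CPM with CHX, against 10.7 and 8.08 CPM untreated, log2 fold changes of 3.46 ± 0.31 (SE) and 3.55 ± 0.27 (SE). The groups did not overlap in these 4 genes, and CHX replicate 3 had the highest level in each.

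Of 15 clock genes 12 were higher and none lower (median 1.91), with 1 lower without CHX replicate 3. The nuclear receptor gene nr1d2b, a repressor of the clock, was at 46.5, 44.7 and 53.8 CPM with CHX, against 4.69 and 6.81 CPM untreated (3.07 ± 0.28 (SE, adjusted p = 0.00012)). The light-inducible period gene per2 was at 129.8, 175 and 149 CPM with CHX, against 25.7 and 34.4 CPM untreated (2.33 ± 0.23 (SE)), the period gene per3 at 63.2, 51.0 and 53.8 CPM with CHX, against 10.95 and 12.7 CPM untreated, and the cryptochrome gene cry2 at 81.7, 88.2 and 58.9 CPM with CHX, against 15.6 and 13.5 CPM untreated. The sources used here do not give the time of day of collection, and its part was not tested.

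Stress pathways that sense amino acids or unfolded protein gave mixed counts. In the ATF4 list 4 of 19 were higher and 6 lower, against 5 and 4 with library size alone, and the higher calls were 2 and 1 without untreated replicate 1 and 2. The atf4a transcript was lower at 306, 303 and 270.0 CPM with CHX, against 599 and 892 CPM untreated (-1.35 ± 0.19 (SE)), trib3, a pseudokinase gene induced by ATF4, was higher at 507, 514 and 609 CPM with CHX, against 294 and 210.0 CPM untreated (1.11 ± 0.20 (SE)), and asns, the asparagine synthetase gene, was at 10.6, 10.95 and 12.1 CPM with CHX, against 11.8 and 10.03 CPM untreated (0.04 ± 0.26 (SE, adjusted p = 0.905)). The amino acid transporter genes slc38a2 and slc3a2a were lower (-1.70 and -4.02). Among endoplasmic reticulum chaperones and related genes 8 of 16 were higher and 3 lower (median 0.53), against 10 and 2 with library size alone, with hyou1, at 314, 234 and 311 CPM with CHX, against 87.6 and 74.9 CPM untreated, and sel1l, of the degradation complex, at 197, 211 and 207 CPM with CHX, against 64.7 and 54.2 CPM untreated, against dnajb9a and dnajb9b, which were lower (-1.74 and -2.94).

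Cytosolic chaperones were lower in 7 of 21 cases and higher in 1 (median -0.60), against 5 lower and 3 higher with library size alone, and 3 were higher without untreated replicate 1. The lower share, 33.3%, was near the 27.7% over all genes, and the higher share, 4.76%, was below the 30%. The constitutive chaperone gene hspa8 was at 30.3, 30.6 and 48.5 CPM with CHX, against 182 and 205 CPM untreated (-2.41 ± 0.24 (SE, adjusted p = 0.000156)). The small heat shock gene hspb1 was at 755, 1043 and 827 CPM with CHX, against 4140.0 and 4164 CPM untreated (-2.25 ± 0.17 (SE)), and the collagen chaperone gene serpinh1b at 10.9, 24.3 and 50.1 CPM with CHX, against 457 and 435 CPM untreated (-3.98 ± 0.51 (SE)). The NF-kB feedback genes gave 2 of 9 higher and 1 lower, 3 and 0 with library size alone, and 2 were lower without untreated replicate 1. Here nfkb1 and nfkbie were higher (3.06 and 2.64), while the inhibitor gene nfkbiaa did not pass the test, at 17.2, 23.8 and 9.88 CPM with CHX, against 21.9 and 20.8 CPM untreated.

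The ventral and BMP-regulated list, of interest because these embryos lack bmp7, had 14 of 23 genes higher and 7 lower (median 1.0). Library size alone gave 16 higher and 4 lower, and there were 4 lower calls without untreated replicate 2, CHX replicate 1 or CHX replicate 2. The secreted protein gene szl (sizzled), which inhibits the proteases that cleave Chordin, was at 11.04, 18.4 and 22.5 CPM with CHX, while untreated mutants had 0 counts, at least 121.5-fold higher. The ligand gene bmp4 was at 31.4, 51.2 and 33.8 CPM with CHX, against 6.17 and 4.48 CPM untreated (2.86 ± 0.34 (SE, adjusted p = 0.000297)). The ventral repressor gene vox was at 633, 819 and 737 CPM with CHX, against 239 and 252 CPM untreated (1.57 ± 0.17 (SE, adjusted p = 0.00022)). The groups were apart in each. The homeobox gene msx1b went the other way at 0.577, 1.64 and 0.648 CPM with CHX, against 20.1 and 52.1 CPM untreated (-5.17 ± 0.55 (SE, adjusted p = 0.000199)). With BMP2/7 protein besides CHX, szl averaged 369.6 ± 23.9 CPM, against 17.1 ± 5.68 CPM with CHX alone, on the scale of all libraries.

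Opposing dorsal genes had 4 of 13 higher and 6 lower (median -1.1). The organizer regulator dharma, a maternal Wnt target that is on before gastrulation, was at 4.83, 4.87 and 2.43 CPM with CHX, against 0.368 and 0.584 CPM untreated (3.07 ± 0.56 (SE, adjusted p = 0.00209)). The BMP antagonist gene chrd (chordin), which acts downstream, was at 573, 711 and 443 CPM with CHX, against 491 and 808 CPM untreated, with overlapping groups and a difference of -0.17 ± 0.26 (SE, adjusted p = 0.585). The antagonist genes nog1, at 4.54, 6.72 and 3.81 CPM with CHX, against 50.2 and 55.4 CPM untreated, and frzb, a secreted Wnt inhibitor, at 2.96, 6.35 and 5.10 CPM with CHX, against 69.5 and 93.0 CPM untreated, were lower (-3.38 ± 0.29 (SE) and -4.07 ± 0.34 (SE)). The Wnt-responsive gene sp5l was lower as well (-1.73 ± 0.15 (SE)).

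Neural and anterior genes were mostly lower, 16 of 21 with 3 higher (median -2.04). The head gene otx2 was at 1.15, 0.952 and 1.78 CPM with CHX, against 52.3 and 118.8 CPM untreated (-6.06 ± 0.44 (SE, adjusted p = 7.08e-05)). The forebrain gene six3b was at 0.0721, 0 and 0 CPM with CHX, against 22.0 and 18.5 CPM untreated, with 1 count in the CHX libraries, 916-fold lower (95% counting interval 163 to 36240). The retinal field gene rx3, in contrast, was at 25.2, 15.13 and 35.6 CPM with CHX, against 0 and 0.292 CPM untreated and 168-fold higher (counting interval 57.4 to 816), and the midbrain-hindbrain gene en2b was at 39.2, 27.9 and 52.5 CPM with CHX, against 0.460 and 0.487 CPM untreated (6.37 ± 0.46 (SE)). In the scaling over all libraries rx3 averaged 24.98 ± 9.84 CPM with CHX, 0.141 ± 0.199 CPM in untreated mutants at 6 hpf and 90.5 ± 48.5 CPM at 8 hpf. For en2b these averages were 39.4 ± 11.7 CPM, 0.461 ± 0.0134 CPM and 0 CPM.

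Of 45 hox genes in the table, which pattern the trunk later in development, 34 had too few counts to be tested. Of the 11 tested, 10 were under 10 counts in both untreated libraries, and 9 of these reached 10 counts in at least 2 CHX libraries. They passed the filter through the group in which they were high, so no share of calls is drawn from them. Levels were low. The gene hoxa5a had 5.48, 4.44 and 6.23 CPM with CHX and 0 counts untreated, at least 37.0-fold higher. The genes hoxa3a, at 3.39, 2.06 and 2.02 CPM, and hoxb7a, at 2.38, 1.48 and 3.40 CPM, likewise had 0 counts untreated and were at least 17.3-fold and 16.1-fold higher. Of the hox members, hoxa5a averaged 0.436 ± 0.238 CPM in wild type at 8 hpf, below its CHX level, and hoxb7a 9.99 ± 0.580 CPM, above it.

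Other signaling pathways were divided. In the FGF list 7 of 14 were higher and 3 lower (median 0.44), against 8 and 0 with library size alone. The ligand genes fgf17, at 346, 297 and 353 CPM with CHX, against 40.2 and 37.5 CPM untreated (3.09 ± 0.18 (SE, adjusted p = 3.50e-05)), fgf8a, at 429, 425 and 373 CPM with CHX, against 97.0 and 129.6 CPM untreated, and fgf3, at 38.02, 40.8 and 21.5 CPM with CHX, against 9.11 and 8.66 CPM untreated, were higher, while the feedback inhibitors spry4 and il17rd, chosen for mention after their values were seen, were lower (-0.85 and -0.90). In the Wnt list 10 of 18 were lower and 2 higher (median -0.78), against 8 lower and 4 higher with library size alone, and 1 was higher without either untreated library, CHX replicate 1 or CHX replicate 2. The ligand gene wnt8a was at 73.8, 79.5 and 65.7 CPM with CHX, against 369 and 893 CPM untreated (-3.11 ± 0.33 (SE)), and lef1, a transcription factor gene of the pathway, at 22.6, 22.2 and 28.5 CPM with CHX, against 87.1 and 90.9 CPM untreated (-1.87 ± 0.21 (SE)). Counts of the entry wnt8-2 were within 5% of those of wnt8a in all 5 libraries, so the 2 entries may count the same reads.

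In the Notch list 10 of 21 were lower and 5 higher (median -0.93), against 8 each with library size alone, and the higher calls were 2 or 3 without either untreated library, CHX replicate 1 or CHX replicate 2. The hairy-related genes her2, at 0.0721, 0.106 and 0.243 CPM with CHX, against 7.09 and 8.27 CPM untreated (-5.74 ± 0.50 (SE)), and hes6, at 35.9, 34.3 and 37.3 CPM with CHX, against 306 and 314 CPM untreated (-3.11 ± 0.16 (SE, adjusted p = 2.14e-05)), which act in the segmentation clock, and her8a (-1.76 ± 0.16 (SE)) were lower. Adhesion genes varied, with 6 of 31 cadherins and protocadherins lower and 4 higher (5 and 6 with library size alone, and 2 higher without untreated replicate 2 or CHX replicate 1), and a large difference was in cdh6, at 0.216, 2.91 and 0.486 CPM with CHX, against 283 and 322 CPM untreated (-7.83 ± 0.70 (SE)). The cadherin and protocadherin shares on the TMM scale, 12.9% higher and 19.4% lower, were below the 30% and 27.7% over all genes. Reads of clustered protocadherins cannot be assigned with certainty to single genes. Of 24 collagen and laminin genes 10 were lower and 2 higher (median -0.67), against 6 and 5 with library size alone, and 1 was higher without untreated replicate 1, CHX replicate 1 or CHX replicate 3. The laminin gene lama1, a basement membrane component, was at 31.8, 73.9 and 32.1 CPM with CHX, against 163 and 275 CPM untreated. Claudins gave 7 of 17 lower and 3 higher (5 and 6 with library size alone, and 5 higher without untreated replicate 1), with cldng at 121.7, 66.1 and 98.1 CPM with CHX, against 18.2 and 22.1 CPM untreated among the higher ones (2.24 ± 0.30 (SE)).

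Cell cycle genes of the cyclin, Cdk and Cdc families had 18 of 42 higher and 7 lower (median 0.47), against 27 and 3 with library size alone, and 4 were lower without untreated replicate 2. The cyclin gene ccnd1 was lower, at 1362, 1526 and 1594 CPM with CHX, against 3738 and 3506 CPM untreated (-1.28 ± 0.14 (SE, adjusted p = 0.00019)), while the phosphatase gene cdc25b was higher, at 957, 961 and 1109.9 CPM with CHX, against 354 and 402 CPM untreated (1.42 ± 0.16 (SE)), and cdc34a, a ubiquitin-conjugating enzyme gene, was at 326, 287 and 403 CPM with CHX, against 38.9 and 35.5 CPM untreated (3.19 ± 0.22 (SE, adjusted p = 5.26e-05)). Of 18 histone genes 9 were lower and 3 higher, with the macroH2A gene h2afy at 10.96, 25.9 and 8.99 CPM with CHX, against 211 and 207 CPM untreated, and the replication-independent H3 gene h3f3a at 2471, 2652 and 2853 CPM with CHX, against 6454 and 5807 CPM untreated. The list median of -0.54 turned to 0.01 under library size alone, with 6 lower and 4 higher. Of 13 tubulin genes 7 were lower and none higher (median -0.97), tubb5 by the largest supported margin after tuba8l2 (-3.31 ± 0.27 (SE) and -3.74 ± 0.46 (SE)). With library size alone 4 tubulin genes were lower and none higher, with a median of -0.43.

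Metabolic lists differed from one another. In sterol synthesis 9 of 18 were higher and 2 lower (median 0.79), against 12 and 1 with library size alone, with nsdhl higher, at 5.19, 4.18 and 4.37 CPM with CHX, against 0.368 and 0.681 CPM untreated, and cyp51 lower, at 50.8, 66.1 and 67.4 CPM with CHX, against 162 and 157 CPM untreated (-1.37 ± 0.19 (SE)). The nsdhl transcript had enough counts to be tested only in the CHX group, so the higher share is not read against that over all genes. In polyamine metabolism 4 of 9 were lower and 2 higher, against 2 each with library size alone, 2 and 1 without CHX replicate 1, and 1 higher without untreated replicate 2. The catabolic gene sat1a.2 was lower (-2.91 ± 0.28 (SE)) and oaz2a, whose antizyme product restrains ornithine decarboxylase, was higher, at 8.15, 7.04 and 8.91 CPM with CHX, against 0.736 and 0.779 CPM untreated (3.39 ± 0.39 (SE)). Of 189 solute carriers 69 were higher and 54 lower, against 101 and 31 with library size alone, and 44 were higher without untreated replicate 2. The solute carrier shares on the TMM scale, 36.5% higher and 28.6% lower, were near the 30% and 27.7% over all genes. The lactate transporter gene slc16a3 was at 630.0, 468 and 781 CPM with CHX, against 46.4 and 38.4 CPM untreated (3.89 ± 0.27 (SE, adjusted p = 6.05e-05)), and slc16a6a, of the same family, was lower (-3.28 ± 0.25 (SE)). Zinc finger genes with a numbered znf symbol gave 15 of 81 higher (18.5%) and 20 lower (24.7%), with znf710a highest (4.14 ± 0.31 (SE)). Library size alone turned this balance to 35 higher and 9 lower, and there were 9 higher calls without untreated replicate 2 and 12 lower calls without CHX replicate 1.

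The draculin genes were among the 10 largest gains at an average log2 CPM of at least 2, of which szl was the largest. The zinc finger gene drl (draculin), a marker of ventral and lateral mesoderm, was at 263, 349 and 285 CPM with CHX, against 2.21 and 1.46 CPM untreated (7.34 ± 0.30 (SE, adjusted p = 1.25e-05)). Its relatives si:dkey-261j4.5 and si:dkey-261j4.3 were at 1726, 1495 and 1991 CPM with CHX, against 22.4 and 10.03 CPM untreated (6.74 ± 0.40 (SE)) and at 450.0, 457 and 546 CPM with CHX, against 9.66 and 3.41 CPM untreated (6.20 ± 0.44 (SE)). In the RefSeq table of GRCz12tu they are drll.3 and drll.1, and with drl and si:dkey-261j4.4 (drll.2, 5.79) they are neighbours on chromosome 5. The symbols drl and zgc:136538 are listed with equal values, and the transcript of zgc:136538 was not matched to that RefSeq table. Reads may be shared within the cluster. The scaling over all libraries gave drl 296 ± 47.4 CPM with CHX, 1.79 ± 0.534 CPM in untreated mutants and 9.001 ± 7.19 CPM in wild type at 6 hpf. The other genes among the 10 largest gains were LOC567472, rx3, en2b, si:rp71-45k5.2 and the Nodal-related ligand gene spaw, at 12.7, 15.8 and 8.50 CPM with CHX, against 0.368 and 0 CPM untreated (5.97 ± 0.73 (SE)).

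A comparison that uses none of these 5 libraries gave most of the same calls. In it CHX-treated mutants with BMP2/7 protein (3 libraries) were set against untreated wild type at 6 hpf (2 libraries, headed Aub-/+ in the count table). Genotype and protein differed there too. CHX, label stage, number of embryos and handling differed in the same way in both comparisons. Their parts in the shared calls cannot be told apart. There 6682 of 10453 genes passed (63.9%, with 31.7% higher and 32.3% lower). Of the genes higher with CHX in the mutants and tested in both, 2195 of 2924 (75.1%) were higher and 45 lower. Of those lower, 2132 of 2685 (79.4%) were lower and 50 higher. Among the 4114 genes without a call, 21.4% were higher and 22.9% lower.

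Named genes that moved in both comparisons included ribosomal protein genes, all 76 of which were lower there (median -2.42), krt97 (-11.71), msgn1 (-6.99 ± 0.23 (SE, adjusted p = 1.57e-05)), nanog (5.13 ± 0.20 (SE, adjusted p = 1.63e-05)), fosab (3.69) and cdkn1a (3.92). The enveloping layer list was lower in 9 of 9 and germ plasm higher in 12 of 13. The counts went differently for the chaperones of the endoplasmic reticulum, with 4 of 16 higher and 8 lower (median -0.60 against 0.53 in the mutants), and the FGF list, with 3 of 15 higher and 5 lower. The chaperone gene hspa5 (BiP) was higher in the mutants (0.95 ± 0.28 (SE, adjusted p = 0.02)) and lower in the other comparison (-0.98 ± 0.23 (SE, adjusted p = 0.00675)). Other lists that went differently there included cadherins and protocadherins, with 8 of 37 higher and 22 lower (median -3.49), and cytosolic chaperones, with 1 of 21 higher and 15 lower. The list of maternal genome activators and other early regulators had 6 of 10 higher and 1 lower, and claudins a median of -1.04. These lists were chosen for mention after their values were seen. The differences between the comparisons were not tested.

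Because the label stages differed, though both groups were collected near 6 hpf by the times given, the calls were set beside untreated development. In wild type at 8 hpf over 6 hpf, 8 of 9702 genes passed (0.0825%), with 1385 at an unadjusted p under 0.05 by edgeR and 449 called by DESeq2, so genes were grouped by size alone. Genes were taken whose 2 libraries at 8 hpf lay apart from both at 6 hpf and whose change was at least 2-fold, which held upward for 6.41% and downward for 4.62% of all genes tested there. Of the 412 genes lower at 8 hpf, 55.6% were higher with CHX and 11.9% lower, with a median log2 fold change of 1.08 with CHX. Of the 428 genes higher at 8 hpf, 27.3% were higher with CHX and 32.0% lower (median -0.19). Over all 9119 genes tested in both, these shares were 27.9% and 29.5%. No untreated library younger than 6 hpf was analysed here, so the part of stage was not tested further.

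**Figure D5:**
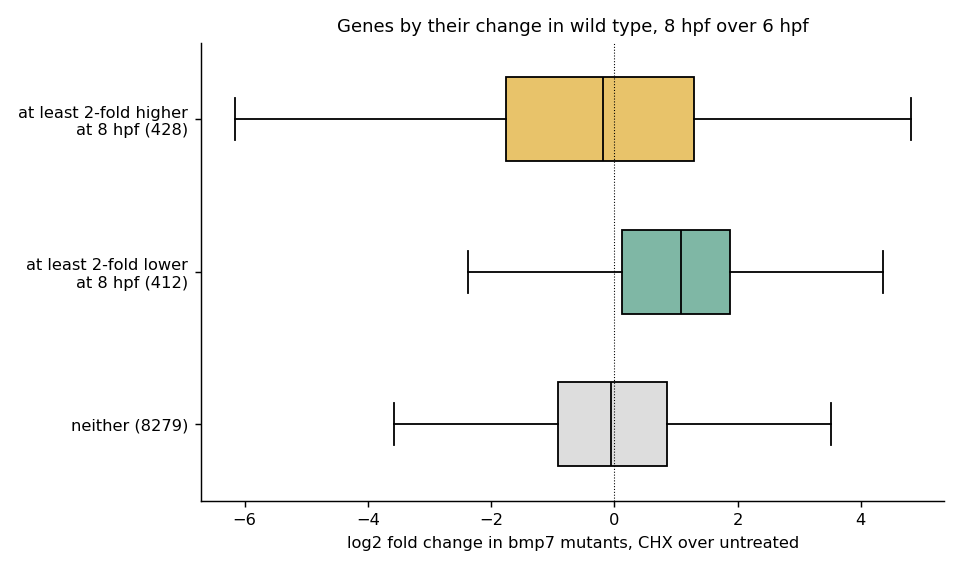
Boxes show the quartiles and median of the log2 fold change in bmp7 mutants, CHX over untreated, for genes grouped by their change in wild type at 8 hpf over 6 hpf, with whiskers to 1.5 times the quartile range and genes beyond them not drawn. The 412 genes lower at 8 hpf have a median of 1.08, above that of the 428 genes higher at 8 hpf (-0.19) and of the 8279 others (-0.05). The 428 genes spread most widely, with quartiles at -1.75 and 1.30.

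Level and transcript type went with the direction of calls. In the top quartile group of average level 25.4% of genes were higher with CHX and 40.4% lower, while in the bottom group 29.6% were higher and 19.5% lower. Of 52 genes with a noncoding RefSeq transcript (accession prefix NR) 8 were higher and 24 lower, with a median of -0.82. Among them nid1b and oip5-as1, chosen for mention after their values were seen, were lower (-3.47 ± 0.30 (SE) and -2.44 ± 0.23 (SE)).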

How the data were processed

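RNA was measured in 14 libraries of pooled zebrafish embryos, of which 5 entered the comparison described. The authors made the raw read counts per RefSeq transcript from stranded poly(A)-selected libraries, with RUM (RNA-seq Unified Mapper) as the aligner and GRCz11 as the build, and the submitters' processing notes also name danRer11 and edgeR. Mapper version and strand use in counting were not given in the sources used here. The 14 deposited columns of normalized log2 values, 1 for each library, and the authors' own fold changes, p-values and FDR were not used. Some headings of the authors' comparisons name untreated Aub-/- libraries WT and Aub-/+ libraries bmp7. Samples were therefore taken from the headings of single libraries, which match the sample labels. A spreadsheet had turned 14 gene symbols into dates, and these were restored from the transcript accessions.

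The deposited counts were tested with edgeR 4.0.16 (glmQLFit and glmQLFTest, R 4.3.3) after TMM scaling and filterByExpr at a minimum count of 10, over 10298 transcripts, and p-values were adjusted over all of them by Benjamini-Hochberg. The 5 libraries were fitted as 2 groups with a biological coefficient of variation of 0.256. Each gene is reported by its transcript with the highest mean count. For groups at 0 counts the fold was bounded by setting the group's sum to 3 counts. For sums of 1 to 3 counts the ratio is given with its 95% counting interval. Bounds and intervals cover counting error only. Counts of 78 gene pairs were within 5% of each other in all 5 libraries. Such counts can come from shared reads or from similar levels of unrelated genes, and which applies to a pair was not tested. The test was run on simulated counts with 200 changed transcripts. These were far fewer than the genes called here, so the simulation does not check the scaling where most genes differ.

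The libraries, gene lists and named genes were chosen with earlier results of these data known. The lists came from textbook knowledge or symbol patterns, and symbols outside a family were removed from the pattern lists after values had been seen. The genes named were bmp7a, the 10 largest folds in each direction (average log2 CPM at or above 2, groups without overlap), up to 4 members of each list with the smallest p, and regulator and target pairs. The alternatives were RLE factors, library size alone, no filter or a stricter filter, DESeq2 1.42.0, glmTreat, fits with other libraries, a replicate block and leaving out each library. No reference sequence was used. Some of the genes that this rule names are not reported here.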

Additional observations from a re-analysis of the deposited data

How the results depend on the processing

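Over the alternatives run, the comparison of CHX-treated with untreated mutants gave between 2549 and 6719 calls, against 5645. Library size alone gave 4475 higher and 1614 lower, a test against a 2-fold change (glmTreat) gave 2549, with 1346 higher and 1203 lower, and an adjusted p under 0.01 left 1889 higher. Leaving out a CHX library gave 4367 to 5526 calls, with 2234 to 2855 higher and 2133 to 2671 lower. The total was lowest without untreated replicate 2, where the lone untreated sample was assumed to vary like the CHX group. In the comparison of CHX with BMP2/7 protein against wild type, library size alone gave 2161 lower, and leaving out a library gave 5455 to 6566 calls.

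Same-numbered libraries correlated at 0.00739 and -0.125 in their deviations from the group means. Deviations of the 2 untreated libraries mirror each other, so these values cannot settle whether the numbers pair the samples, and no source says that they do. A replicate block gave 4949 calls in the 5 libraries and 6719 calls when all 10 mutant libraries were fitted together with the block, and reversed asns (-0.01 and -0.04), tnnt3a (-0.45 and -0.48), chrd (0.02 with 5 libraries) and atf4b (0.02 with 10). Wild type at 8 against 6 hpf depended on the tool, with 8 calls by edgeR, 449 by DESeq2 (243 higher and 206 lower) and 1032 with the replicate block (496 higher and 536 lower). Leaving out a library gave between 2 and 105 calls there, with 2 to 75 higher and 0 to 41 lower. With the stage contrast from a fit of all 14 libraries, 39.2% of the genes higher at 8 hpf were lower with CHX. The cause was not tested.

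Of 189 genes named by the rule 178 were called, and 153 of these kept call and direction under every alternative. The log2 fold change of 8 others, none called, changed sign under at least 1 alternative. Library size alone gave 0.12 for eif4a3, 0.20 for nfkbiaa, 0.51 for atf4b and 0.36 for chrd. RLE factors and DESeq2 gave -0.02 each for asns, and no filter gave 0.02 for atf4b. Leaving out a library gave -0.42 to 0.64 for tnnt3a, -0.19 to 0.54 for ta, -0.52 to 6.84 for nfkb2, -0.16 to 0.10 for atf4b, -0.08 to 0.16 for asns and -0.49 to 0.23 for chrd. With 3 and 2 libraries, small changes and genes of few counts could not be resolved.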

Other observations

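The 51 genes under 1 CPM in every CHX library and at 10 CPM or more in both untreated libraries held genes outside the lists, and the genes named here were chosen after their values were seen. Among them were the UDP-glucuronosyltransferase genes ugt1b1 (0, 0.317 and 0.243 CPM with CHX, against 13.2 and 12.4 CPM untreated) and ugt1b5 (0, 0.317 and 0.243 CPM with CHX, against 15.5 and 15.2 CPM untreated), enzymes that conjugate lipophilic compounds for excretion. Genes of this cluster share exons in other vertebrates, so their entries may count the same reads. Transcription factor genes of placodes, head and pharynx were also among them, tbx1 at 0.144, 0.106 and 0 CPM with CHX, against 34.9 and 50.2 CPM untreated, hesx1 at 0, 0.952 and 0 CPM with CHX, against 15.6 and 37.8 CPM untreated and mafb at 0.144, 0.899 and 0.0810 CPM with CHX, against 14.4 and 21.8 CPM untreated. Of these, hesx1 was already counted in the neural list. The cytolinker gene eppk1, of epithelial cells, was at 0.577, 0.635 and 0.405 CPM with CHX, against 206 and 248 CPM untreated, and the heparin-binding growth factor gene mdkb at 0.216, 0.106 and 0.243 CPM with CHX, against 37.2 and 75.4 CPM untreated.

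The 10 genes with the reverse pattern included cyp26c1, which codes for an enzyme that breaks down retinoic acid, at 32.8, 31.1 and 36.2 CPM with CHX, against 0.736 and 0.876 CPM untreated. The kinase gene tnk2b was at 24.5, 15.98 and 19.8 CPM with CHX, against 0.920 and 0.292 CPM untreated. In the scaling over all 14 libraries cyp26c1 averaged 33.0 ± 2.198 CPM with CHX, 0.784 ± 0.0878 CPM in untreated mutants at 6 hpf and 5.06 ± 3.15 CPM at 8 hpf (SD over libraries).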
